A study of Stylophora pistillata with 18 samples.

Results

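The 5 genes described here lie on the mitochondrial genome of the reef-building coral Stylophora pistillata and encode cytochrome b, ATP6, COX3, COX2 and COX1. They were chosen by their scaffold and coordinates in the deposited annotation and are 5 of the 29419 gene models in the count table. RNA was sequenced from specimens of wild-type adult colonies kept for 18 h in seawater with 250 µM 3′3′-cUA (cUA), with 250 µM 2′3′-cGAMP (cGAMP), or with neither compound (control). Both compounds are cyclic dinucleotides, the class of second messenger made by cGAS-like receptors, and the series asked how they change coral gene expression. Each treatment had 6 libraries, 3 from colony 2 and 3 from colony 1, so 18 libraries came from 2 colonies. Libraries are named by treatment, colony and specimen letter, as in cUA 2A. Whether the specimens of a colony were grown or treated apart from each other is not stated in the labels, and each p-value therefore reflects the spread among specimens of these 2 colonies.

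The mitochondrial genome of animals keeps a small set of protein genes, and nearly all of them belong to the machinery of oxidative phosphorylation. Electrons pass through complex III, whose central subunit is cytochrome b, to cytochrome c and then to complex IV, where COX1, COX2 and COX3 form the catalytic core that reduces oxygen. The proton gradient built in this way drives ATP synthase, and ATP6 is the membrane subunit through which its protons flow. Coral colonies also house dinoflagellate algae, and the models counted here are those of the deposited coral annotation.

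All 5 genes lie on the plus strand of the mitochondrial scaffold NC_011162.1, each as 1 coding segment. Cytochrome b (Spis_YP_002149703_1) spans bases 3872 to 5011 and holds 380 codons. ATP6 (Spis_YP_002149706_1) spans 6888 to 7565 and holds 226 codons. COX3 (Spis_YP_002149708_1) spans 11031 to 11810 and holds 260 codons, and COX2 (Spis_YP_002149709_1) spans 11786 to 12622 and holds 279 codons. COX1 (Spis_YP_002149713_1) spans 15592 to 17139 and is the longest of the 5, with 516 codons. The annotation gives these models coding segments and 0 exon lines, and the gene names come from the positions, because the files carry no product names for them.

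Several of these models overlap or nest. COX3 and COX2 share 25 bases, from 11786 to 11810. COX2 also shares 19 bases, from 12604 to 12622, with the next model, Spis_YP_002149710_1, and ATP6 shares 1 base with the model before it. The model Spis_YP_002149701_1 is drawn in 2 coding segments, and its intron, from 2719 to 13301, contains cytochrome b, ATP6, COX3 and COX2 together with 6 other models. COX1 lies outside it. How reads over shared bases were assigned is not given in the sources used here, so the levels of COX3 and COX2 are uncertain where they share reads with a neighbour. The libraries were made with oligo(dT) enrichment, and the part that this selection plays in the levels of mitochondrial RNA was not tested.

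The libraries held 22175801 to 41800393 assigned counts each. Levels are given as CPM, counts per 1000000 counts of the library after scaling by the trimmed mean of M-values (TMM). The TMM factor, which corrects a library for the weight of its most abundant transcripts, was 0.619 in cUA 2A and 0.714 in control 1A, and lay between 0.862 and 1.23 in the other libraries. A low factor raises every CPM value of its library. All 13 mitochondrial models together took 0.0106% to 0.0359% of a library's counts, so the members were counted from a small share of the RNA. Over all 18 libraries COX1 had 45221 counts, cytochrome b 5148, ATP6 1680, COX2 303 and COX3 160. The last of these rests on 1 to 23 counts per library. All 5 passed the filter on low counts, as did 21375 models in all. In whole colony pieces, fewer cells of a type and less RNA per cell cannot be told apart.

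Per kilobase of coding length, COX1 had the highest level of the 5 in every library and COX3 the lowest average. COX1 averaged 50.4 ± 26.1 CPM per kb with cUA, 72.0 ± 20.6 with cGAMP and 52.8 ± 14.8 in controls (SD, n = 6 each here and below). Cytochrome b averaged 10.7 ± 8.69 CPM per kb with cUA, 12.3 ± 6.50 with cGAMP and 5.67 ± 1.40 in controls. ATP6 averaged 3.99 ± 2.44 CPM per kb with cUA, 7.65 ± 3.29 with cGAMP and 3.71 ± 1.22 in controls. The 2 core subunits encoded by the overlapping pair stood far below. COX2 averaged 0.315 ± 0.135 CPM per kb with cUA, 1.55 ± 0.885 with cGAMP and 0.478 ± 0.131 in controls. COX3 averaged 0.189 ± 0.155 CPM per kb with cUA, 0.644 ± 0.240 with cGAMP and 0.423 ± 0.266 in controls.

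The order COX1, cytochrome b, ATP6, COX2 held in 18 of 18 libraries on the per-kilobase scale. COX2 was above COX3 in 15 of 18 libraries, namely 5 with cUA, 6 with cGAMP and 4 controls, and these neighbours in the order overlapped within cUA and control libraries. The step from COX1 down to cytochrome b had a median ratio of 6.83 over the 18 libraries, with a range of 2.14 to 11.7. The step from ATP6 down to COX2 had a median ratio of 7.74, with a range of 3.96 to 21.0. COX1 and COX2 encode neighbouring subunits of one enzyme, yet their per-kilobase levels differed by a median ratio of 162 with cUA, 57.5 with cGAMP and 114 in controls.

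**Figure D1:**
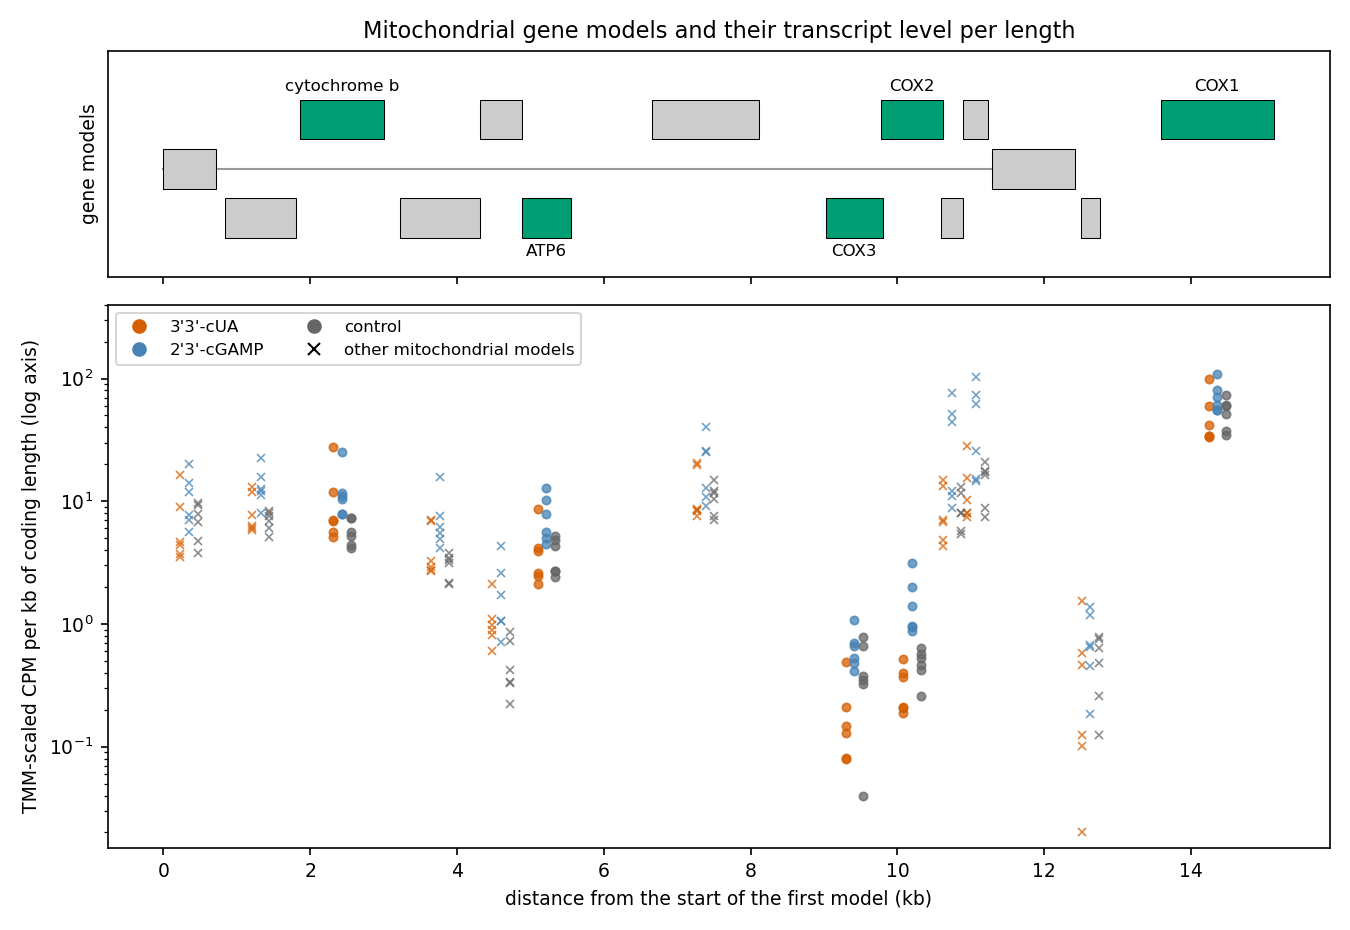
The upper panel draws the mitochondrial gene models along the scaffold by distance from the start of the first model (kb), with the 5 members in green, other models in grey, and a line for the intron of the split model. The lower panel gives the TMM-scaled CPM per kilobase of coding length (log axis) of each model in the 18 libraries, circles for members and crosses for others, with the split model placed over its first segment and the 1 library at 0 drawn at the bottom of the axis; of the members, COX1 sits highest and the overlapping COX3 and COX2 lowest.

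With cGAMP, COX2, the subunit that takes electrons from cytochrome c, was 3.10-fold higher than in controls. It was the only one of the 5 members called at an adjusted p of 0.05 by edgeR's quasi-likelihood test with Benjamini-Hochberg adjustment over all 21375 models. Of those models 9.22% were called higher with cGAMP and 12.3% lower, and a count of 1 in 5 members cannot be read as more than that background. COX2 counts with cGAMP ran from 16 to 53 (median 24.5), against 7 to 20 in controls (median 13.5). On the CPM scale the lowest, median and highest were 0.733, 0.993 and 2.63 with cGAMP, against 0.218, 0.414 and 0.532 in controls. The groups did not overlap, and the 3 highest values were those of colony 1. The log2 fold change was 1.63 ± 0.37 (SE, adjusted p = 0.00443, 95% interval 0.83 to 2.43). Over summed counts the ratio of cGAMP to control was 3.17, with an exact 95% interval of 2.43 to 4.16 that covers counting error only. The other tools called 2 to 3 members in this comparison. DESeq2 called COX2, ATP6 and cytochrome b, beside 11% of models higher, and limma-voom called 2 members, beside 9.97%, or 3 with sample weights, beside 23.4%. With the libraries of these 2 treatments alone, edgeR called 4 members, beside 10.7%. In colony 2 alone, with 3 libraries a group, the COX2 log2 fold change was 1.09 and was not called (adjusted p = 0.292).

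Cytochrome b and ATP6 had log2 fold changes near 1 with cGAMP but missed the threshold. Cytochrome b had a lowest, median and highest level of 8.98, 12.2 and 28.7 CPM with cGAMP, against 4.70, 6.18 and 8.38 CPM in controls. These groups also did not overlap, and the highest library was cGAMP 1A. The log2 fold change of cytochrome b was 1.12 ± 0.40 (adjusted p = 0.0562). ATP6 had a lowest, median and highest level of 3.02, 4.57 and 8.62 CPM with cGAMP, against 1.65, 2.40 and 3.54 CPM in controls. The ATP6 groups overlapped, because colony 2 libraries with cGAMP reached down into the range of the colony 1 controls. Its log2 fold change was 1.04 ± 0.37 (adjusted p = 0.0523).

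COX1, which holds the site where oxygen is reduced, had a lowest, median and highest level of 86.5, 101 and 169 CPM with cGAMP, against 53.6, 86.1 and 113 CPM in controls. The groups overlapped widely and the log2 fold change was 0.45 ± 0.29 (adjusted p = 0.288, 95% interval -0.16 to 1.06). COX3, a core subunit without a metal centre, had 8 to 17 counts per library with cGAMP, against 1 to 23 in controls. On the CPM scale the COX3 groups overlapped in part, at 0.322 to 0.842 with cGAMP against 0.0312 to 0.612 in controls. The log2 fold change of COX3 was 0.63 ± 0.51 (adjusted p = 0.410, 95% interval -0.46 to 1.72). Over the members the median log2 fold change with cGAMP was 1.04, beside -0.07 over all models tested. Cytochrome b and COX2 were the 2 members whose cGAMP and control values did not overlap in the higher direction, a pattern shown by 5.56% of all models.

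Of the 7 other mitochondrial models tested, 5 were called higher with cGAMP and none lower, and whether they differ from the members was not tested. They were Spis_YP_002149702_1 (log2 fold change 0.97), Spis_YP_002149704_1 (1.28), Spis_YP_002149705_1 (1.89), Spis_YP_002149710_1 (1.80) and Spis_YP_002149711_1 (1.62). The last 2 follow COX2 directly on the scaffold, and Spis_YP_002149705_1 ends on the first base of ATP6. The files name no product for these models. All 13 mitochondrial models together averaged 233 ± 98.4 CPM with cGAMP, against 138 ± 36.3 CPM in controls.

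**Figure D2:**
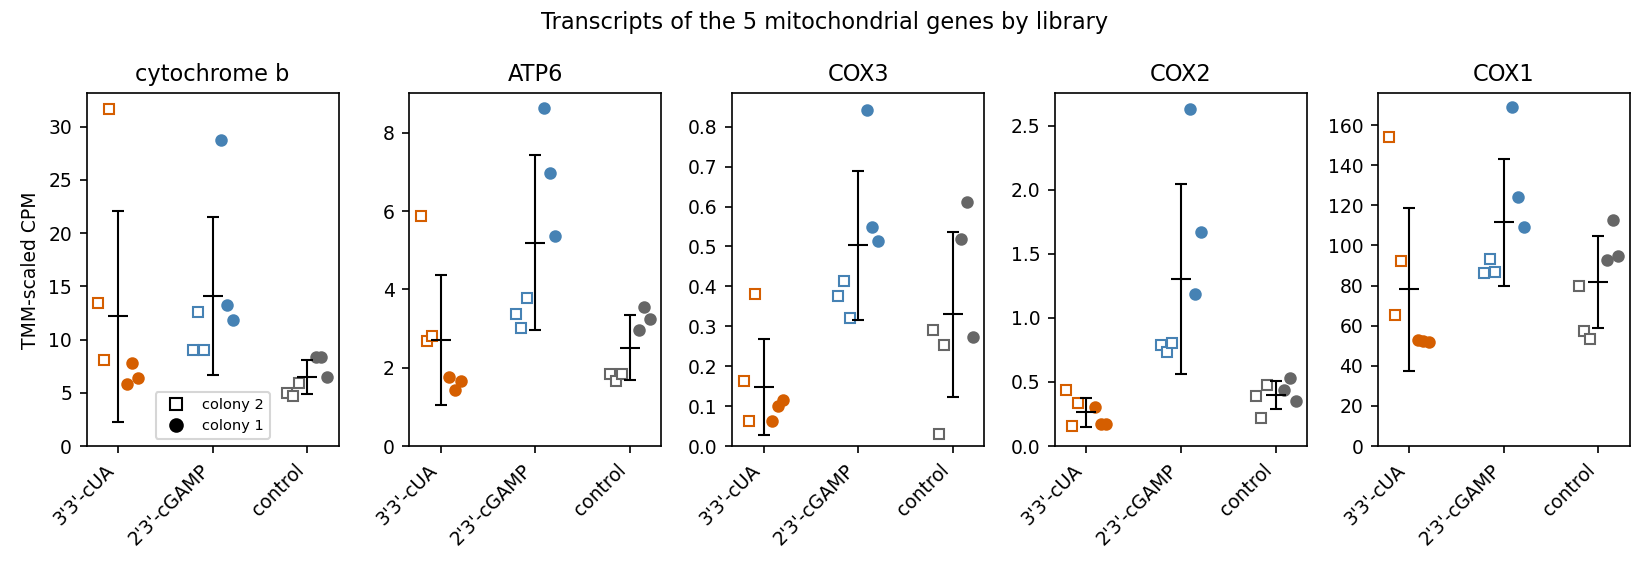
TMM-scaled CPM of the 5 members in each library, 1 panel per gene with its own axis, with cUA, cGAMP and control from left to right. Filled circles are colony 1, open squares colony 2, and black bars the mean ± SD of 6 libraries. COX2 with cGAMP lies at 0.733 CPM and above, over every control and every cUA library.

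With cUA, none of the 5 members was called by edgeR against the same controls, where 5.91% of all models were called higher and 4.29% lower. At an unadjusted p under 0.05 cytochrome b was the 1 member, higher with cUA, beside 12% of all models higher. DESeq2 also called 0 members, beside 8.19% of models higher and 7.1% lower, and limma-voom with sample weights called 4 lower, ATP6, COX3, COX2 and COX1, beside 19.1% of all models called lower by that method. Cytochrome b had a lowest, median and highest level of 5.79, 7.95 and 31.7 CPM with cUA, against 4.70, 6.18 and 8.38 CPM in controls. The groups overlapped, and cUA 2C stood far above the other cUA libraries. No member's cUA and control values lay apart without overlap, beside 3.14% of all models higher and 2.19% lower. The log2 fold change of cytochrome b was 0.92 ± 0.42 (edgeR adjusted p = 0.190, 95% interval 0.02 to 1.81).

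The complex IV members gave log2 fold changes below 0 with cUA. COX3 had 2 to 8 counts with cUA (median 3.5), against 1 to 23 in controls (median 11), and its log2 fold change was -1.12 ± 0.56 (adjusted p = 0.242, 95% interval -2.31 to 0.08). Without cUA 2C, which holds 8 of the 23 COX3 counts in cUA libraries, the log2 fold change was -1.72 and passed (edgeR adjusted p = 0.0426). In that fit 820 of 21831 models were called lower, and of the 18 fits that left out a library it was the 1 that called COX3. COX2 had 5 to 10 counts with cUA (median 7), against 7 to 20 in controls (median 13.5). Its log2 fold change was -0.61 ± 0.39 (adjusted p = 0.388, 95% interval -1.44 to 0.23). The groups overlapped for both genes.

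COX1 and ATP6 with cUA scattered on both sides of the controls. COX1 had a lowest, median and highest level of 51.7, 58.9 and 154 CPM with cUA, against 53.6, 86.1 and 113 CPM in controls, and its log2 fold change was -0.04 ± 0.29 (adjusted p = 0.961, 95% interval -0.67 to 0.59). ATP6 had a lowest, median and highest level of 1.43, 2.22 and 5.88 CPM with cUA, against 1.65, 2.40 and 3.54 CPM in controls. Its log2 fold change was 0.18 ± 0.38 (adjusted p = 0.841, 95% interval -0.64 to 1.00). The highest value of COX1 and of ATP6 was that of cUA 2A, the library with the lowest TMM factor, and the part of that factor in the spread was not tested. Over the members the median log2 fold change with cUA was -0.04, beside -0.02 over all models tested, and 0 of the 7 other mitochondrial models tested were called.

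The 2 compounds were given at the same dose and for the same time, and their difference was tested directly for the 5 members within the fit of all models. No member was called by edgeR at an adjusted p of 0.05, where 0% of all 21375 models were called in either direction. At an unadjusted p under 0.05, 3 members were lower with cUA than with cGAMP, beside 2.49% of all models. They were COX2, COX3 and ATP6. At the same cut, 3 of the 7 other mitochondrial models tested were also lower with cUA, and the log2 differences of all 7 were below 0.

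COX2 stood furthest apart between the compounds. It had 10, 7, 6, 8, 5 and 7 counts in the 6 cUA libraries, against 53, 28, 39, 21, 16 and 20 counts in the 6 cGAMP libraries. Every cUA value was below every cGAMP value, a lack of overlap seen in the lower direction for 0.159% of all models. The log2 difference was -2.24 ± 0.39 (adjusted p = 0.132, 95% interval -3.08 to -1.39), and its unadjusted p of 2.25e-05 ranked 2 of 21375. Over summed counts the ratio of cUA to cGAMP was 0.191 (exact 95% interval 0.134 to 0.268, counting error only). DESeq2 called the difference (log2 -2.32, adjusted p = 0.000227), beside 0.0982% of models called lower by that tool, and limma-voom with sample weights called all 5 members lower, beside 6.41%. In edgeR the COX2 difference was also called when cUA 2A was left out (log2 -2.48, adjusted p = 0.0205), where 14 of 21807 models were called lower. The fold changes of each compound against control share the 6 control libraries, so the direct difference is the comparison between compounds.

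COX3 had 2 to 8 counts with cUA, against 8 to 17 with cGAMP, so the groups met at 8 counts, and on the CPM scale cUA 2C lay within the cGAMP range. Its log2 difference was -1.75 ± 0.56 (adjusted p = 0.384, 95% interval -2.94 to -0.55). ATP6 gave -0.86 ± 0.38 (adjusted p = 0.560, 95% interval -1.68 to -0.03) and COX1 -0.49 ± 0.29 (adjusted p = 0.684, 95% interval -1.12 to 0.14). Cytochrome b gave -0.20 ± 0.42 (adjusted p = 0.965, 95% interval -1.10 to 0.69). The intervals of COX1 and cytochrome b include 0 and also differences of more than 1 log2 unit lower with cUA, so the failed tests do not show that the compounds act alike on these genes.

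**Figure D3:**
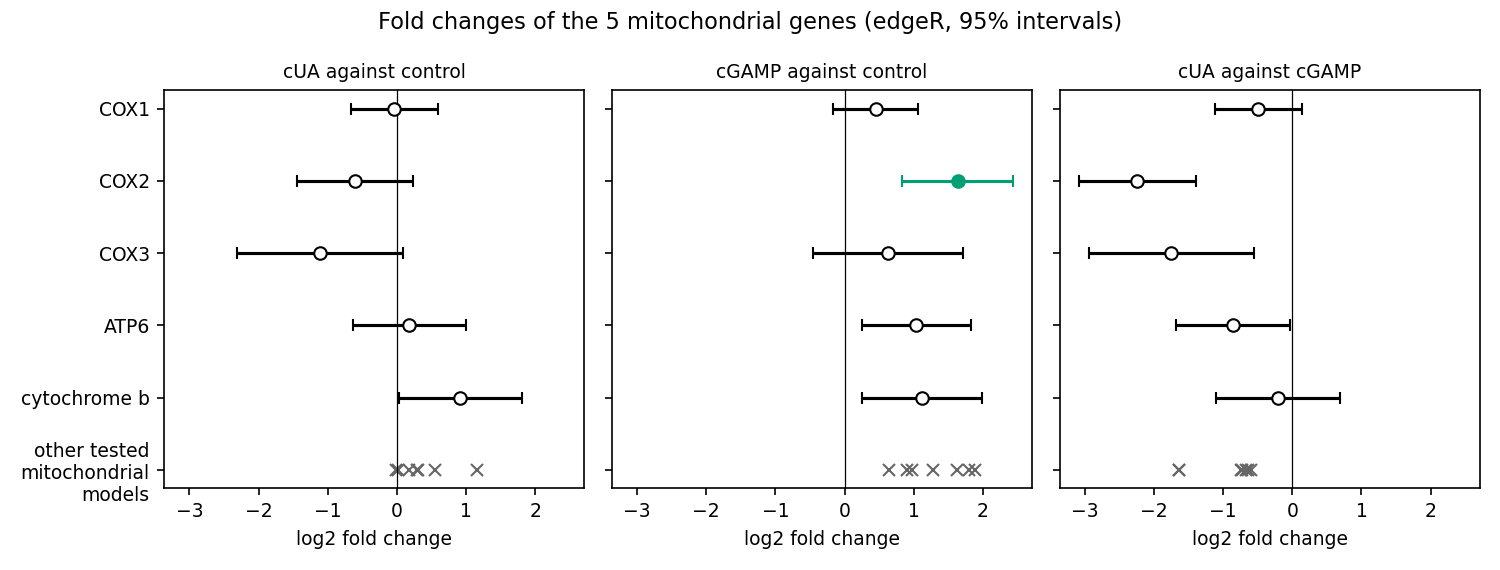
Log2 fold changes from edgeR for cUA against control, cGAMP against control and cUA against cGAMP, with 95% intervals for the 5 members and crosses without intervals for the 7 other mitochondrial models tested. The filled green point is the 1 member called at an adjusted p of 0.05, COX2 at 1.63 for cGAMP against control, and its difference of -2.24 for cUA against cGAMP is the farthest from 0 among the members.

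The values with cUA split by colony. In colony 2, COX1 had 154, 65.2 and 92.2 CPM with cUA, against 79.8, 57.4 and 53.6 CPM in controls. In colony 1, COX1 had 52.7, 52.3 and 51.7 CPM with cUA, against 92.5, 113 and 94.5 CPM in controls. ATP6 showed the same arrangement, with 5.88, 2.68 and 2.82 CPM with cUA against 1.84, 1.65 and 1.84 CPM in controls of colony 2. In colony 1, ATP6 had 1.76, 1.43 and 1.66 CPM with cUA against 2.95, 3.54 and 3.25 CPM in controls. Without overlap between 3 libraries and 3, cytochrome b and ATP6 were higher with cUA in colony 2, beside 11.5% of all models. In colony 1, ATP6, COX3, COX2 and COX1 were lower with cUA without overlap, beside 13% of all models. Among the 7 other mitochondrial models tested, 2 were higher without overlap in colony 2 and 6 were lower in colony 1.

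The difference between the colonies in the effect of cUA was tested as an interaction, colony 2 minus colony 1. ATP6 gave a log2 difference of 2.09 ± 0.46 and COX1 of 1.64 ± 0.38, each with an adjusted p of 0.318 in edgeR. Cytochrome b gave 1.97 ± 0.60 (adjusted p = 0.344), COX3 2.31 ± 0.99 (adjusted p = 0.403) and COX2 0.75 ± 0.69 (adjusted p = 0.664). No member and 0% of all models passed in edgeR. At an unadjusted edgeR p under 0.05, 4 of the 5 members were in the higher direction, beside 8.29% of all models. The same held for 6 of the 7 other mitochondrial models tested, so the split was not particular to the members. DESeq2 called 2 members, ATP6 (adjusted p = 0.00527) and COX1 (adjusted p = 0.0150), beside 0.847% of models called higher. limma-voom with sample weights called the same 2, beside 1.2%. Without cUA 2B, edgeR also called ATP6 and COX1, among 92 of 21798 models. With total counts in place of TMM factors the edgeR values were 1.49 for ATP6 and 1.04 for COX1 (adjusted p = 0.409 each). The TMM factors ran from 0.619 to 1.12 in the cUA libraries of colony 2 and from 1.16 to 1.18 in those of colony 1, and their part in the split was not tested further.

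With cGAMP, the mean of every member was above that of the controls in each colony. All 5 members were higher than controls without overlap in colony 2, beside 17.7% of all models, and cytochrome b, ATP6 and COX2 were so in colony 1, beside 15%. The mean log2 difference from controls for COX2 was 1.03 in colony 2 and 1.84 in colony 1. For ATP6 it was 0.90 in colony 2 and 1.07 in colony 1, and for COX1 0.50 in colony 2 and 0.41 in colony 1. The interaction for COX2 was -0.95 and no member passed (adjusted p at least 0.884). Between cUA and cGAMP, COX2 was the only member lower with cUA without overlap in colony 2, beside 3.57% of all models. In colony 1 all 5 members were lower without overlap, beside 16.9%, and so were the 7 other mitochondrial models tested. Colony 2 and colony 1 themselves did not differ by a called amount in any member (adjusted p at least 0.665, with 0% of all models called) in edgeR, while limma-voom with sample weights called ATP6 lower in colony 2, beside 12.5% of all models. Without control 1A, edgeR called 272 of 21788 models between the colonies and still no member.

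**Figure D4:**
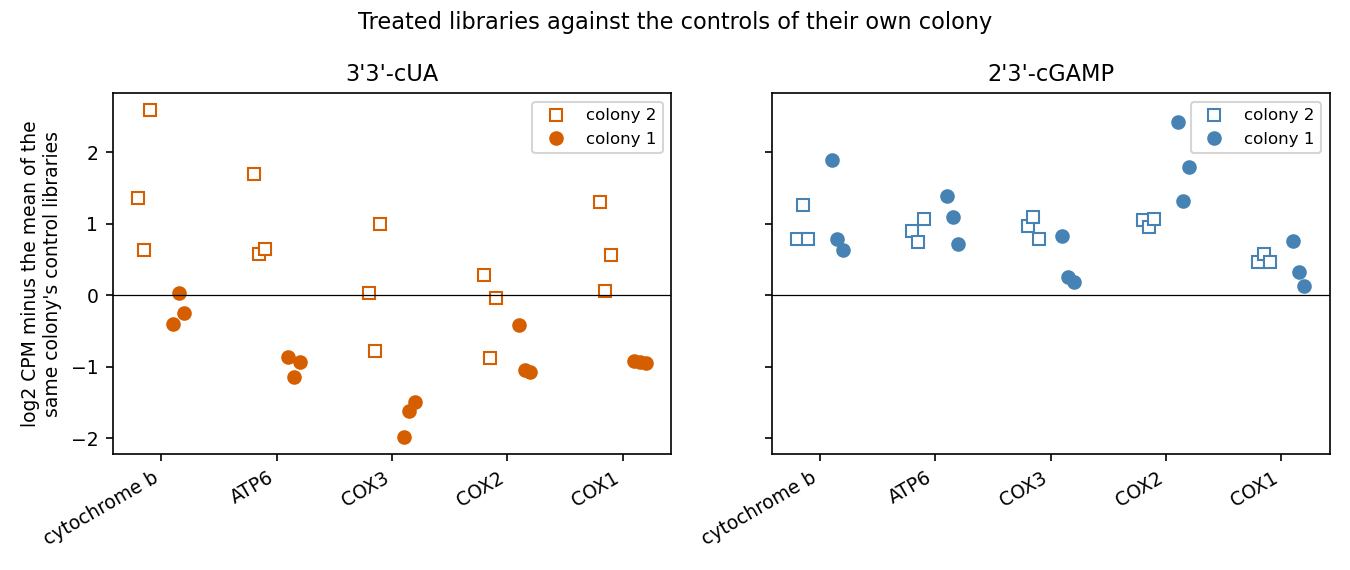
Log2 CPM of each member in each treated library minus the mean log2 CPM of the 3 control libraries of the same colony, with cUA on the left and cGAMP on the right, open squares for colony 2 and filled circles for colony 1. With cUA, the COX1 points average 0.64 in colony 2 and -0.93 in colony 1, while with cGAMP all points of both colonies lie above 0.

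COX2 was also set against COX1, the most abundant member. COX2 had 2.42 to 5.85 counts per 1000 COX1 counts with cUA, 7.85 to 15.5 with cGAMP and 3.71 to 8.87 in controls. The cGAMP libraries of colony 1 (9.52 to 15.5) lay above all controls, those of colony 2 (7.85 to 9.29) overlapped 1 control, control 2C. This ratio is taken within a library and does not depend on the TMM factor. Cytochrome b had 87.2 to 344 counts per 1000 COX1 counts with cUA, 104 to 170 with cGAMP and 62.9 to 111 in controls, and the highest value was again that of cUA 2C.

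Relative to COX1, the models that follow COX2 on the scaffold stood higher in colony 1 than in colony 2 with cGAMP. Whether they differ from COX2 in this was not tested. Spis_YP_002149710_1, which shares 19 bases with COX2, had 121 to 134 counts per 1000 COX1 counts in the colony 1 libraries with cGAMP, against 28.5 to 42.2 in those of colony 2. It had 25.0 to 43.0 with cUA and 25.9 to 37.1 in controls. Spis_YP_002149711_1, its neighbour, had 197 to 211 in colony 1 with cGAMP and 56.4 to 102 in colony 2, beside 49.3 to 63.2 with cUA and 45.1 to 70.6 in controls. The 5 members together made up 51.8% to 53.7% of mitochondrial counts in the colony 1 libraries with cGAMP and 62.0% to 68.8% in those of colony 2. They made up 62.7% to 67.1% with cUA and 63.1% to 70.6% in controls. The 3 colony 1 libraries with cGAMP thus stood below all 15 others in this share.

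**Figure D5:**
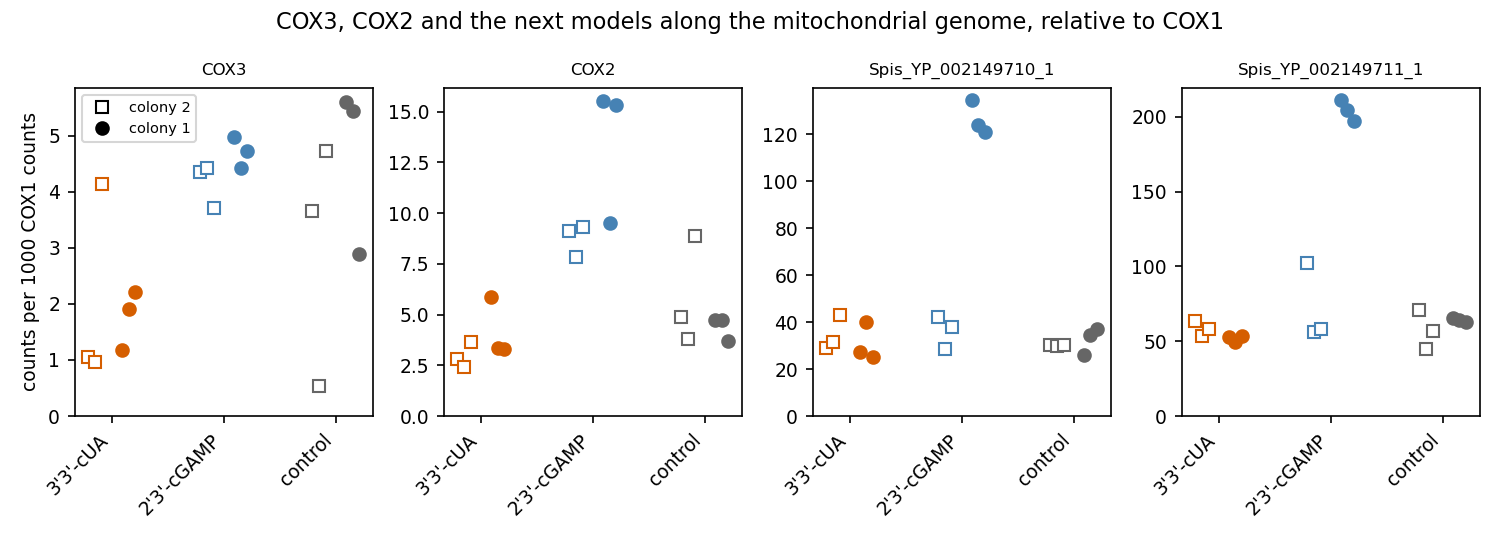
Counts per 1000 COX1 counts in each library for COX3, COX2 and the 2 models that follow them on the scaffold, each panel with its own axis, with cUA, cGAMP and control from left to right. Filled circles are colony 1 and open squares colony 2, and COX2 runs from 7.85 to 15.5 with cGAMP while Spis_YP_002149710_1 runs from 121 to 134 in colony 1 with cGAMP.

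Likeness was measured as Pearson's r with the members' mean log2 CPM over the 18 libraries, among the 17197 models that averaged at least 1 CPM. The mean includes the members, and all points share library depth and scaling, so the values are descriptions. Of the 9 mitochondrial models in that set, 8 were among the 20 closest. Spis_YP_002149711_1 came first (rank 1, r = 0.93), then ATP6 (rank 2, 0.92) and COX1 (rank 5, 0.91), and cytochrome b had rank 36 (0.78). COX2 and COX3 averaged under 1 CPM and were not ranked. The closest model off the mitochondrial genome was Spis_XP_022786653_1 (LOC111326838), on the minus strand of scaffold NW_019217874.1 at 786064 to 803267, with r = 0.86. It averaged 7.70 ± 2.53 CPM with cUA, 12.8 ± 3.20 with cGAMP and 6.43 ± 2.28 in controls, and was called higher with cGAMP (log2 fold change 1.01 ± 0.27, edgeR adjusted p = 0.0125). The next was Spis_XP_022778527_1, on the plus strand of scaffold NW_019217803.1 at 286505 to 309473, with r = 0.84, which was not called.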

How the data were processed

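Gene counts were deposited as whole numbers, 1 column per library. Per the submitters' processing notes, STAR, featureCounts and DESeq2 were used. For the genome build, the feature counted, the strand setting and the handling of shared reads, nothing is given in the sources used here. Per the labels, total RNA was DNase-treated, enriched on oligo(dT) and made into directional libraries. The deposited counts sum to 22175801 to 41800393 per library.

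The deposited counts were analysed with edgeR 4.0.16 in R 4.3.3, with filterByExpr (21375 of 29419 models kept) and TMM scaling. The fit was glmQLFit with colony and treatment as terms (14 residual degrees of freedom, or 12 with their interaction) and Benjamini-Hochberg adjustment at 0.05. A prior count of 2 was set for log2 CPM values only. Colony is shared by all treatments and is the block of this model. Specimen letters were not used as pairs in the main fit. Of 18 same-letter pairs, 6 correlated above 0.1 (range -0.447 to 0.381). These correlations use deviations from means of 3 libraries, without different-letter pairs beside them, and cannot exclude pairing. Libraries of one treatment and colony differed with a chi-square per degree of freedom of at least 20.9, where counting error alone gives about 1. None was thus a second reading of another library with counting error alone. Whether any were separate libraries of the same specimen cannot be told from this value. CPM values use TMM-scaled totals, and per-kilobase values divide by coding length. Exact intervals are at 95% and cover counting error only. The edgeR SE was derived from the log2 fold change and the quasi-likelihood F statistic. Its 95% interval uses the residual degrees of freedom, so it is approximate and need not match the p-value exactly.

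Alternatives used DESeq2 1.42.0, limma 3.58.1, other filters and scalings, single colonies, and each library left out. The scripts were tested on simulated data. All 5 members are named, with the 7 other mitochondrial models tested and 2 further models by likeness. The members and lists were chosen with earlier results of these data known.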

Additional observations from a re-analysis of the deposited data

Results flagged for a closer look

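Within treatments, 8 of 30 gap tests (Dixon, 6 libraries each, over CPM and share of mitochondrial counts) found a library far from the others. Chance gives about 1 in 20 for a single test of like libraries. These tests reuse the same libraries and counts, and each pools 2 colonies. The number flagged therefore cannot be read as an excess over chance. Cytochrome b reached 31.7 CPM in cUA 2C, where it made up 15.6% of mitochondrial counts and COX1 45.4%, and the same library had COX3 at 0.382 CPM on 8 counts. Cytochrome b reached 28.7 CPM in cGAMP 1A. ATP6 reached 5.88 CPM in cUA 2A, the library with the lowest TMM factor. COX2 made up 0.325% of mitochondrial counts in cUA 1A, on 10 counts, and 0.513% in control 2C, on 15 counts.

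The effect of cUA ran in opposite directions in the colonies for ATP6 (colony 2 minus colony 1, log2 2.09) and COX1 (1.64), in every cUA library against the mean of its own colony's controls. The interaction was tested and did not pass in edgeR (adjusted p = 0.318 for each, n = 3 libraries per treatment and colony, fit across all models).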

How the results depend on the processing

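COX2 with cGAMP against control was called in 30 of 31 alternatives that gave a value and lost in colony 2 alone (log2 fold change 1.09). These include an exact permutation of treatment labels on log2 CPM, without the colony block, judged on its unadjusted p (0.00216). All 18 fits that left out a library kept the COX2 call (log2 1.37 to 1.74, edgeR adjusted p 0.00253 to 0.0142). The cause of the changes below was not tested. The replicate block by specimen letter gave COX2 1.62 (adjusted p = 0.00816), and pairing changed no member's call. For cGAMP against control, 1 member was called, beside 1970 of 21375 models called higher. It was 2 without the colony block (1933 of 21375 models higher), with limma-voom (2132 of 21375) and in colony 1 alone (1196 of 20860). It was 3 with DESeq2 (2354 of 21375 higher) and with limma-voom sample weights (4993 of 21375). Without both control 1A and cUA 2A it was also 3 (3570 of 21700 higher). The libraries of the 2 treatments alone gave 4 (2245 of 20892 higher). Colony 2 alone gave 0 (527 of 20300 higher). The strict filter also gave 0 (1829 of 17716 higher) and leaves COX2 and COX3 untested. For cUA against control, with 0 called, it was 2 in colony 1 alone (COX3 and COX1, beside 457 of 20860 models lower). It was 4 with sample weights (4072 of 21375 lower). For cUA against cGAMP, with 0 called, it was 1 with DESeq2 (beside 21 of 21375 models lower). It was 2 without both libraries (COX2 and ATP6, beside 313 of 21700 lower) and 5 with sample weights (1371 of 21375 lower). Sample weights also called 1 member, ATP6, between colonies (beside 2664 of 21375 models lower). They called 2 members for the cUA interaction (256 of 21375 models higher), as did DESeq2 (2, beside 181 of 21375). Leaving out 1 library gave 0 to 1 for cUA against control (1 without cUA 2C, beside 820 of 21831 models lower). It gave 1 to 3 for cGAMP against control (3 without control 1A, beside 2942 of 21788 higher). It gave 0 to 1 for cUA against cGAMP (COX2 without cUA 2A, beside 14 of 21807 lower). It gave 0 to 2 for the cUA interaction (ATP6 and COX1 without cUA 2B, beside 45 of 21798 higher).

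Over all models, cUA against control gave 2179 calls, and 3269 with DESeq2, 931 in colony 1, 471 in colony 2, 7278 with sample weights, and 1369 (without control 2A) to 3392 (without control 1A) with 1 library left out. For cGAMP against control 4604 became 2726 in colony 1, 813 in colony 2, 11135 with sample weights and 7484 without both libraries. For cUA against cGAMP 0 became 103 with DESeq2, 2 in colony 1, 2759 with sample weights, 729 without both libraries, and 0 to 45 (without cUA 2A) with 1 left out. Between colonies 0 became 3 with DESeq2, 4556 with sample weights, 99 without both libraries and 272 without control 1A. For the cUA interaction 0 became 227 with DESeq2, 376 with sample weights, 92 without cUA 2B and 1 without cUA 1C.

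Signs turned as follows, in log2. For cUA against control, cytochrome b was -0.22 in colony 1. ATP6 was -0.051 with total counts only, -1.02 in colony 1, -0.11 with limma-voom, -0.73 with sample weights, -0.19 without both libraries and -0.0039 as a difference of mean log2 CPM. COX1 was 0.71 in colony 2. For cUA against cGAMP in colony 2, cytochrome b was 0.82, ATP6 0.17 and COX1 0.24. Between colonies, cytochrome b was 0.032 without both libraries. For the cGAMP interaction with sample weights, cytochrome b was 0.070 and ATP6 0.094. With 1 library left out, cUA against control ran from -0.21 to 0.39 for ATP6 and -0.34 to 0.10 for COX1, cUA against cGAMP from -0.74 to 0.094 for cytochrome b, and the colony difference from -0.30 to 0.20 for cytochrome b. The cGAMP interaction ran from -0.48 to 0.26 for cytochrome b, -0.33 to 0.0055 for ATP6, -0.013 to 0.91 for COX3 and -0.075 to 0.26 for COX1. COX3, with 160 counts in all, fell under the count filter in colony 2 alone and under the strict filter. For cUA against control it gave a value in 29 alternatives, where ATP6 gave 32. Depth limits COX3 and COX2 most.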
